A study of Mus musculus with 2 samples.

Results

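The 10 genes described are chemokine ligands read in microglia sorted from the brains of sham-operated mice. Ccl2, Ccl3, Ccl4, Ccl5, Ccl6, Ccl9 and Ccl12 belong to the CC family, and Cxcl2, Cxcl10 and Cxcl16 to the CXC family. They were taken by symbol from the 53801 Ensembl genes listed for each library, and all 10 were found, each well above 10 counts in either library. A wider list of 38 chemokine ligand genes holds these 10 and 28 others.

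Bulk RNA-seq was done on 2 sham libraries, each made from the cells of 1 mouse of genotype Cx3cr1(CreER/wt) on the C57BL/6 background. These mice carry a tamoxifen-inducible Cre in 1 of their Cx3cr1 alleles, which is active in microglia and other cells that use this promoter, and have no floxed gene. Tamoxifen was injected at 75 mg/kg a day for 4 days, with surgery 14 days after the first dose. Cells were sorted from the left hemisphere as CD11c–Ly6G–CD11b+CD45low 3 days after the sham operation. The design text of the series gives male mice of 8 to 10 weeks, while the study's methods, for its surgery as a whole, give older mice of both sexes. The titles name sham surgery and the treatment field reads none. No library of the stroke arm was analysed here, so there is no contrast between conditions, and every comparison below is between genes or between 2 mice of the same group.

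Chemokines are small proteins, most of them secreted, that guide leukocytes by binding G-protein-coupled receptors. The CC and CXC families are named for the spacing of the first cysteines of the mature protein, and many mouse CC genes lie in clusters on chromosome 11. In the brain, microglia are a known source of CCL3, CCL4, CCL2 and CCL12 when they are activated, and handling or dissociation of tissue is known to be able to raise such genes. The study states that its own enzymatic digestion of brain tissue might alter transcription in microglia during isolation. The part of this in the levels below was not tested. Since RNA was pooled over the sorted cells, a smaller number of cells of 1 type and less RNA in each of them cannot be told apart.

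Library 1 held 23381026 counts on genes and library 2 held 41142609, so counting error is smaller in library 2. Levels are given in CPM, which is counts per 1000000 counts on genes. The 10 microglia markers were all counted in both libraries, with summed levels of 39111 and 44410 CPM. Some lists of genes of other cells differed more between the 2 mice. The summed level of the 12 neutrophil genes was 5067 CPM in library 1 but 62309 CPM in library 2, with Ngp the highest there, and 11 of them were more than 2-fold higher in library 2, although Ly6G+ cells were gated out. The 6 monocyte genes summed to 643 and 3300 CPM, of which Chil3 alone made up 455 and 2901 CPM. Ly6c2 was the other monocyte gene more than 2-fold higher in library 2, and Plac8 and Vcan were lower there in CPM. The 8 border macrophage genes summed to 1109 and 409 CPM. Of these, 4 were more than 2-fold lower in library 2, as were 25.9% of all genes with 10 or more counts in each library. Stab1, the most abundant, had 455 and 116 CPM, while Ms4a7 was higher in library 2, at 47.4 and 59.0 CPM. None of the neutrophil, monocyte or border macrophage genes was at 0 in either library.

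Promoter sequences of 6 of the 10 genes were matched by symbol in RefSeq (GRCm38.p6). Those of Cxcl2, Cxcl10, Ccl6 and Ccl9 are shown because these were the 4 of the 10 genes more than 2-fold higher in library 2. The same held for 5.74% of all genes with 10 or more counts in each library. The sequence of Ccl12 is shown because Ccl12 alone of the 10 genes was not higher in CPM in library 2. Its direction changed with the scaling. Each line gives the 250 bases before the RefSeq transcription start, 5′ to 3′ on the strand of the gene, and capitals mark matches to the NF-κB consensus or to TATAAA on either strand.
Cxcl2 (chr5:90903649-90903898, plus strand): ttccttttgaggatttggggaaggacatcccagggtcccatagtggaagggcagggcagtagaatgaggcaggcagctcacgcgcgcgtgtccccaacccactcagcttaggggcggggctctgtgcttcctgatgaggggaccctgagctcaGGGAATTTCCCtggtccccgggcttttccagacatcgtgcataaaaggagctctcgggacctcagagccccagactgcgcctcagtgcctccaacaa
Cxcl10 (chr5:92348890-92349139, minus strand): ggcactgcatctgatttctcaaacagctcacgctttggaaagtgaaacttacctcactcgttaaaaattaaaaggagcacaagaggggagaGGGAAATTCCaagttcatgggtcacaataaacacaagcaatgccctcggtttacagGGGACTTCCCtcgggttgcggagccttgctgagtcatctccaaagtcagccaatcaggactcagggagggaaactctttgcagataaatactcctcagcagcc
Ccl6 (chr11:83593088-83593337, minus strand): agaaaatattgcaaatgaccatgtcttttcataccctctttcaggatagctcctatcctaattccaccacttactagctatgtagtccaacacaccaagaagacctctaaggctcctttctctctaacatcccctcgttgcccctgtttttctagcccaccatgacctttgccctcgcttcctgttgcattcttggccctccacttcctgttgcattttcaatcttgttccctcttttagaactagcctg
Ccl9 (chr11:83578637-83578886, minus strand): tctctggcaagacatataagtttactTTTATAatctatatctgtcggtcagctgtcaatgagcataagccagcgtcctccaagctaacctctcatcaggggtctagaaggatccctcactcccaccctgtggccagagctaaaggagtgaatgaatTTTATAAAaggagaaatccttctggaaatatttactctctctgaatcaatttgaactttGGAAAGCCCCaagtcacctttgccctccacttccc
Ccl12 (chr11:82101595-82101844, plus strand): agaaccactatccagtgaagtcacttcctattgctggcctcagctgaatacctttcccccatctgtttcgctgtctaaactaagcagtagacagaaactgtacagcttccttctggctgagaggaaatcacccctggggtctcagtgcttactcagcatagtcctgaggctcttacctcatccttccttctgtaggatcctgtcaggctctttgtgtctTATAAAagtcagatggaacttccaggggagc

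NF-κB is a transcription factor that inflammatory signals activate. Its consensus matched in the windows of Cxcl2, Cxcl10 and Ccl9, against 3.90% of all 32851 RefSeq windows of this length. Cxcl10 had 2 separate matches, at 159 to 150 and at 103 to 94 bases before its start. The 2 matches of Cxcl2 overlap on opposite strands, from 97 to 87 bases before the start. The match of Ccl9 lay at 35 to 26 bases before the start, on the opposite strand. TATAAA matched in Ccl12, at 31 to 26 bases before the start, and 3 times in Ccl9, with 2 of these overlapping, against 12.4% of all windows. The AP-1 motif TGANTCA matched in Cxcl10 and Ccl9, against 6.75% of all windows. The motif GAAANNGAA, part of the interferon-stimulated response element, matched in Cxcl10 at 213 to 205 bases before the start and in Ccl3 at 39 to 31, against 7.13% of all windows. The C/EBP motif TTGCNNAA matched in none of the 6 windows, against 9.56% of all. The PU.1 core GAGGAA matched in Ccl12 and Ccl3, against 23.3% of all. None of these motifs matched in Ccl6. The RefSeq start of Cxcl2 lies 28 bases after the start in the files, so its window runs into the gene as listed. These matches describe the letters of the windows only, and binding was not measured.

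Together the 10 genes were counted 35729 times in library 1 and 102376 times in library 2, at 1528 and 2488 CPM, with a mean of 2008 ± 679 CPM (SD, n = 2). This was 0.153% of the counts of library 1 (95% Wilson interval 0.151% to 0.154%) and 0.249% of those of library 2 (0.247% to 0.250%). The intervals take in counting error alone, since PCR copies of 1 molecule are not independent of each other. Of all counts on the 38 ligand genes, the 10 genes took 90.6% in library 1 and 93.3% in library 2. The 7 CC genes held 91.5% and 92.1% of the counts of the 10, so the division between CC and CXC genes was close to equal in the 2 mice.

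To order genes by level, CPM was divided by the length of their merged exons in kilobases (CPM per kb). Ccl4 was highest in both libraries and Cxcl10 lowest. By the mean of the 2 libraries the order was Ccl4, Ccl3, Ccl12, Ccl6, Ccl2, Ccl9, Cxcl16, Cxcl2, Ccl5 and Cxcl10. Of the 45 pairs that the 10 genes form, 44 stood in the same order in both libraries, and 43 had ranges that did not overlap. The exception in order was Ccl3 and Ccl12, with Ccl12 above Ccl3 in library 1 and below it in library 2. Ccl2 and Ccl9 kept their order, but their ranges overlapped. The other 7 neighbouring pairs in the order had ranges apart.

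**Figure D1:**
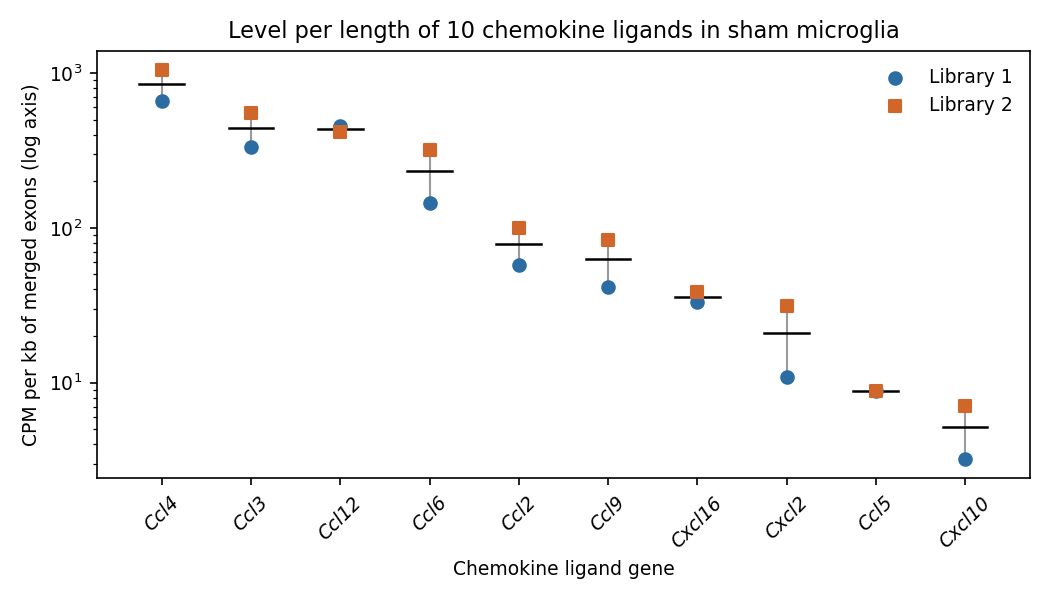
Level per length (CPM per kb of merged exons, log axis) of the 10 chemokine ligand genes, with a circle for library 1, a square for library 2 and a bar at their mean. The 2 libraries gave the same order except for Ccl3 and Ccl12, and the range ran from 1045 CPM per kb for Ccl4 in library 2 to 3.21 for Cxcl10 in library 1.

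Ccl3 and Ccl4 encode MIP-1α and MIP-1β, which attract monocytes and lymphocytes, and CCL3 binds CCR1. Ccl4 (ENSMUSG00000018930, chromosome 11 of GRCm38, 83662584 to 83664683, plus strand) was counted 10197 times in library 1 and 28379 times in library 2, at 436 and 690 CPM, with a mean of 563 ± 179 CPM (SD, n = 2). Per length, Ccl4 had 661 and 1045 CPM per kb, and its mean level per kb exceeded that of 99.6% of the 13439 genes that reached 10 counts in each library and have a known length. Ccl4 ranked number 53 among counted genes in library 1 and number 44 in library 2 by level per kb. Ccl3 (ENSMUSG00000000982, 83647844 to 83649355, minus strand) was counted 5957 and 17406 times, at 255 and 423 CPM, with a mean of 339 ± 119 CPM (SD, n = 2). Both genes were higher in library 2, by 1.58-fold for Ccl4 and 1.66-fold for Ccl3. Per length, Ccl3 had 333 and 552 CPM per kb. Within each library the level per kb of Ccl4 was close to the same multiple of that of Ccl3, 1.99 in library 1 and 1.89 in library 2. The 2 genes lie 13.2 kb apart on opposite strands.

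Ccl6 and Ccl9 are rodent CC genes whose products bind CCR1, and macrophages and other myeloid cells are known to express them. Ccl6 (ENSMUSG00000018927, chromosome 11, 83587882 to 83593087, minus strand) was counted 6117 times in library 1 and 23714 times in library 2, at 262 and 576 CPM, with a mean of 419 ± 223 CPM (SD, n = 2). Ccl9 (ENSMUSG00000019122, 83572919 to 83578636, minus strand) was counted 2947 and 10535 times, at 126 and 256 CPM, with a mean of 191 ± 91.9 CPM (SD, n = 2). Library 2 was the higher for both, by 2.20-fold for Ccl6 and 2.03-fold for Ccl9. Per length, Ccl6 had 146 and 321 CPM per kb and Ccl9 had 41.4 and 84.1, and per length Ccl9 stood below Ccl2, while in CPM it stood above it. As with Ccl4 and Ccl3, their ratio within a library moved little, with Ccl6 at 3.52 times the level per kb of Ccl9 in library 1 and 3.82 times in library 2. The summed neutrophil genes were 12.3-fold higher in library 2, and the monocyte genes, through 2 of the 6, were 5.14-fold higher. Their part in the levels of Ccl6 and Ccl9 was not tested.

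Ccl2 and Ccl12 encode MCP-1 and MCP-5, which attract monocytes through CCR2. Ccl2 (ENSMUSG00000035385, chromosome 11, 82035571 to 82037453, plus strand) was counted 1521 times in library 1 and 4643 times in library 2, at 65.1 and 113 CPM, with a mean of 89.0 ± 33.8 CPM (SD, n = 2). Ccl12 (ENSMUSG00000035352, 82101845 to 82103400, plus strand) was counted 5740 and 9236 times, at 245 and 224 CPM, with a mean of 235 ± 14.9 CPM (SD, n = 2). Per length, Ccl12 was above Ccl2 in both mice, with 457 and 418 CPM per kb against 57.2 and 99.2. Unlike the pairs above, these 2 genes did not keep their ratio, since Ccl12 had 8.00 times the level per kb of Ccl2 in library 1 and 4.22 times in library 2. Ccl2 was 1.73-fold higher in library 2, whereas Ccl12 had a log2 ratio of −0.13 when scaled by totals and of 0.12 when scaled by TMM, so no direction can be given for it.

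Ccl5 encodes RANTES, a ligand of CCR1 that T cells and NK cells are known to make. Ccl5 (ENSMUSG00000035042, chromosome 11, 83525778 to 83530518, minus strand) was counted 197 times in library 1 and 350 times in library 2, at 8.43 CPM (95% Wilson interval 7.33 to 9.69) and 8.51 CPM (7.66 to 9.45). The levels of the 2 mice differed by less than these intervals. The 10 T and NK cell genes summed to 6.20 and 19.8 CPM, with Cd3e and Cd8a at 0 in both libraries and Cd3g, Klrb1c, Ncr1 and Gzma at 0 in library 1 only. Per length, Ccl5 was the lowest of the 10 genes but for Cxcl10 in both libraries.

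Cxcl2 encodes MIP-2, which attracts neutrophils through CXCR2. Cxcl2 (ENSMUSG00000058427, chromosome 5, 90903871 to 90905938, plus strand) was counted 529 times in library 1 and 2657 times in library 2, at 22.6 and 64.6 CPM, with a mean of 43.6 ± 29.7 CPM (SD, n = 2). Its 2.85-fold difference was the largest of the 10 genes. Per length it had 10.9 CPM per kb in library 1, close above Ccl5 with 8.78, but 31.2 in library 2, close below Cxcl16 with 38.6. Neutrophils are themselves known to express Cxcl2, and the neutrophil genes stood 12.3-fold higher in the same library, but their part in the difference was not tested. The 16 early response genes, which the isolation of cells can raise, were all counted and summed to 20035 and 23829 CPM. They did not move alike, since 2 were more than 2-fold higher in library 2 and 4 more than 2-fold lower. Over all genes with 10 or more counts in each library, the shares were 5.74% and 25.9%. Fos was the highest early response gene in library 2, and the part of these genes in the difference was not tested either.

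Cxcl10 encodes IP-10, a ligand of CXCR3 that interferons induce. Cxcl10 (ENSMUSG00000034855, chromosome 5, 92346638 to 92348889, minus strand) was counted 169 times in library 1 and 658 times in library 2, at 7.23 CPM (95% Wilson interval 6.22 to 8.40) and 16.0 CPM (14.8 to 17.3). It was 2.21-fold higher in library 2. The intervals, which take in counting error alone and not the spread between mice, were apart. Per length, Cxcl10 had 3.21 and 7.10 CPM per kb, and its mean exceeded that of 56.3% of counted genes. Cxcl9 and Cxcl11, which encode the other CXCR3 ligands and lie next to Cxcl10, had 7 and 2 counts in library 1 and 166 and 11 in library 2. Cxcl9 was thus also higher in library 2, while the counts of Cxcl11 were too few to give it a direction.

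Cxcl16 encodes a chemokine that is made as a transmembrane protein and binds CXCR6. Cxcl16 (ENSMUSG00000018920, chromosome 11, 70453983 to 70459984, minus strand) lies apart from the CC clusters. It was counted 2355 times in library 1 and 4798 times in library 2, at 101 and 117 CPM, with a mean of 109 ± 11.2 CPM (SD, n = 2). Per length, Cxcl16 had 33.3 and 38.6 CPM per kb. Its 1.16-fold difference was among the smallest of the 10 genes.

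The difference between the 2 mice was set beside that of all genes. In CPM, 9 of the 10 genes were higher in library 2, among them Ccl5 by only 1.01-fold. Of the 13445 genes that reached 10 counts in each library, called counted genes here, 5182 were higher in library 2. More than 2-fold higher were 4 of the 10 genes, namely Cxcl2, Cxcl10, Ccl6 and Ccl9, against 5.74% of the counted genes. None of the 10 genes was more than 2-fold lower there, against 25.9% of the counted genes. At a fold of 1.5, 7 of the 10 genes were higher in library 2, against 12.6% of the counted genes, and at a fold of 3 none were, against 2.94%. The median log2 ratio was 0.76 for the 10 genes and −0.26 for all counted genes. When scaled by totals, the direction of the 10 genes thus differed from that of most genes. With TMM and DESeq2 size factors, the median log2 ratio of all counted genes was −0.013 and 0.012, so most genes then shared no direction. Both scalings raise every log2 ratio alike, so the distance of the 10 genes from the median of all counted genes stayed the same. With 1 mouse on each side and genes chosen by name, no test of this was made. Where the background was limited to the 10293 genes whose 2 counts averaged 100 or more, 5.29% were more than 2-fold higher.

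**Figure D2:**
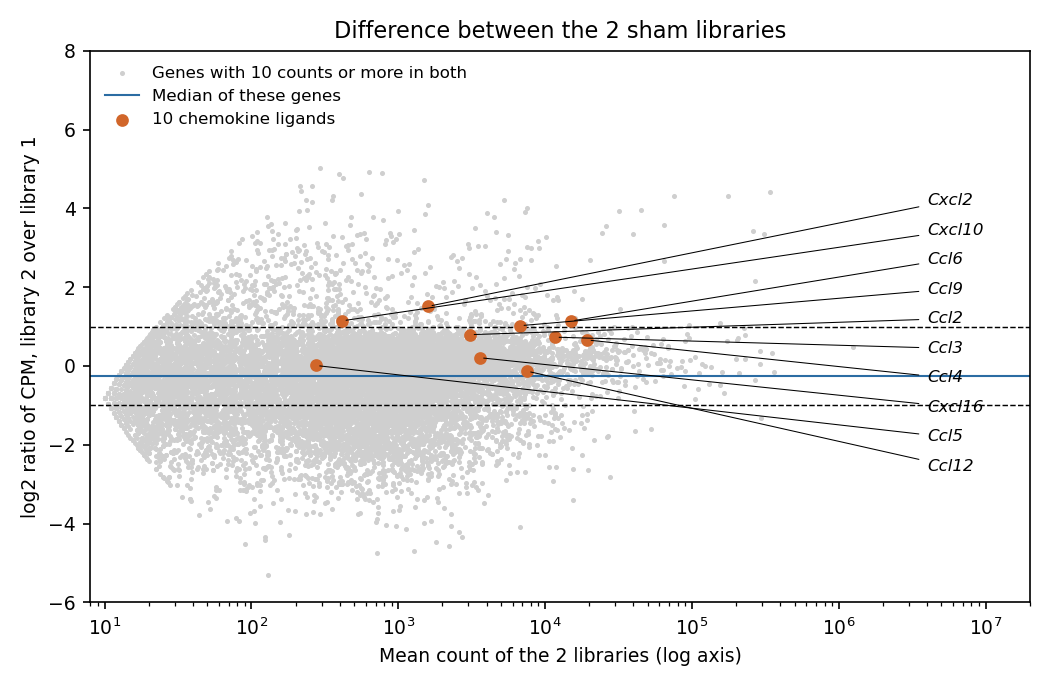
log2 ratio of CPM of library 2 over library 1 against the mean count of the 2 libraries (log axis), with the 10 chemokine ligand genes in orange, the 13445 counted genes in grey, dashed lines at a 2-fold difference and a blue line at the median. The 10 genes all lie above the median of −0.26, and Cxcl2 at 1.51 is the highest of them.

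Scaling changed how many genes passed this fold. TMM library sizes raised all log2 ratios by 0.25, and 5 of the 10 genes, now with Ccl2, were more than 2-fold higher, against 8.78% of the counted genes. With DESeq2 size factors it was 6 genes, now with Ccl3 as well, against 9.22%. The ratios were also taken relative to the median of genes of like GC content and transcript length, which centres all genes near 0. Then 1 gene, Cxcl2 at a log2 ratio of 1.21, was more than 2-fold higher, against 9.70% of all genes with a known length, and 12.7% of the genes were more than 2-fold lower in place of 25.9%. Ccl6 at 0.99 and Cxcl10 at 0.95 then fell just short of 2-fold. With totals that leave out the neutrophil genes, the 4 genes passed as before, against 6.46% of the counted genes. This had to be so, since these totals raise every log2 ratio alike, by 0.0855. Any reads of the 10 genes that came from neutrophils stay in, so this scaling cannot show the part of neutrophils.

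**Figure D3:**
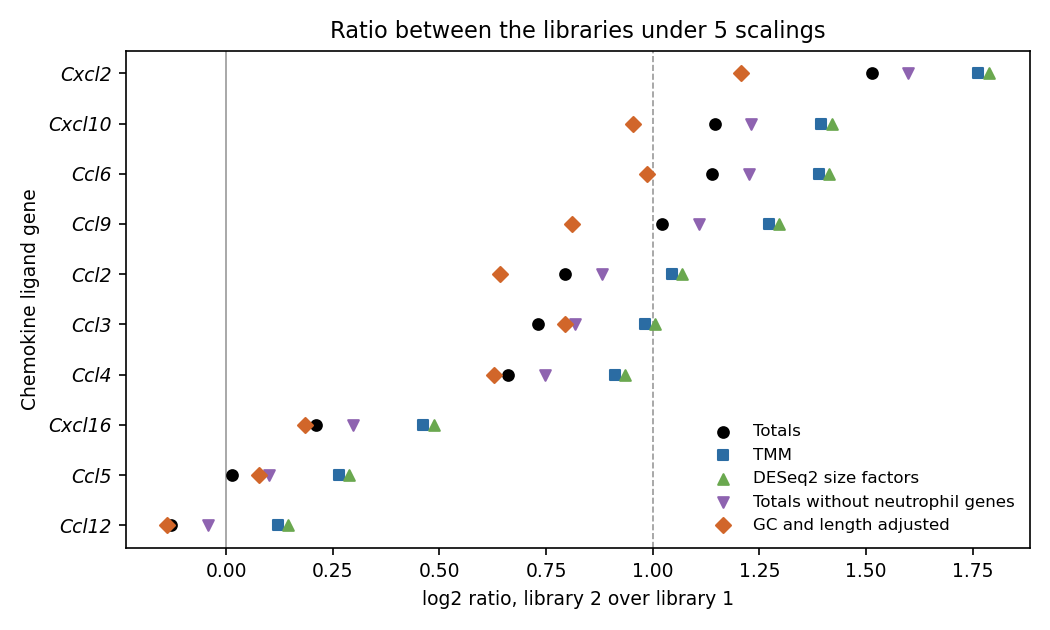
log2 ratio of library 2 over library 1 for each of the 10 genes, with 1 marker for each of 5 scalings, a grey line at 0 and a dashed line at a 2-fold difference. Ccl12 lies on both sides of 0, the other 9 genes lie above 0 under each scaling, and Cxcl2 is past the dashed line under each.

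On chromosome 11 the genes fall into a cluster of MCP genes and a cluster of MIP genes, and the levels of their neighbours differed widely. In the MIP cluster, the level per kb in each library rose from gene to gene in the order of the chromosome, from Ccl5 through Ccl9, Ccl6 and Ccl3 to Ccl4. In the MCP cluster, Ccl7 (MCP-3), which lies 8.26 kb from Ccl2, had 31.0 and 47.8 CPM, and Ccl2 had 1.48 and 1.66 times its level per kb. Ccl8 (MCP-2), next to Ccl12, had 16.7 and 15.9 CPM, and with 32.6 and 31.2 CPM per kb it stayed far below Ccl12 in both. In this cluster, then, Ccl2 and Ccl7 were higher in library 2 by 1.73-fold and 1.54-fold, while Ccl12 and Ccl8 had folds of 0.914 and 0.954, which pass to the other side of 1 when scaled by TMM. Ccl11, between Ccl7 and Ccl12, and Ccl1, after Ccl8, had no counts in either library, which, taking 3 counts as the limit, allows up to 0.128 CPM in library 1 and 0.0729 CPM in library 2.

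**Figure D4:**
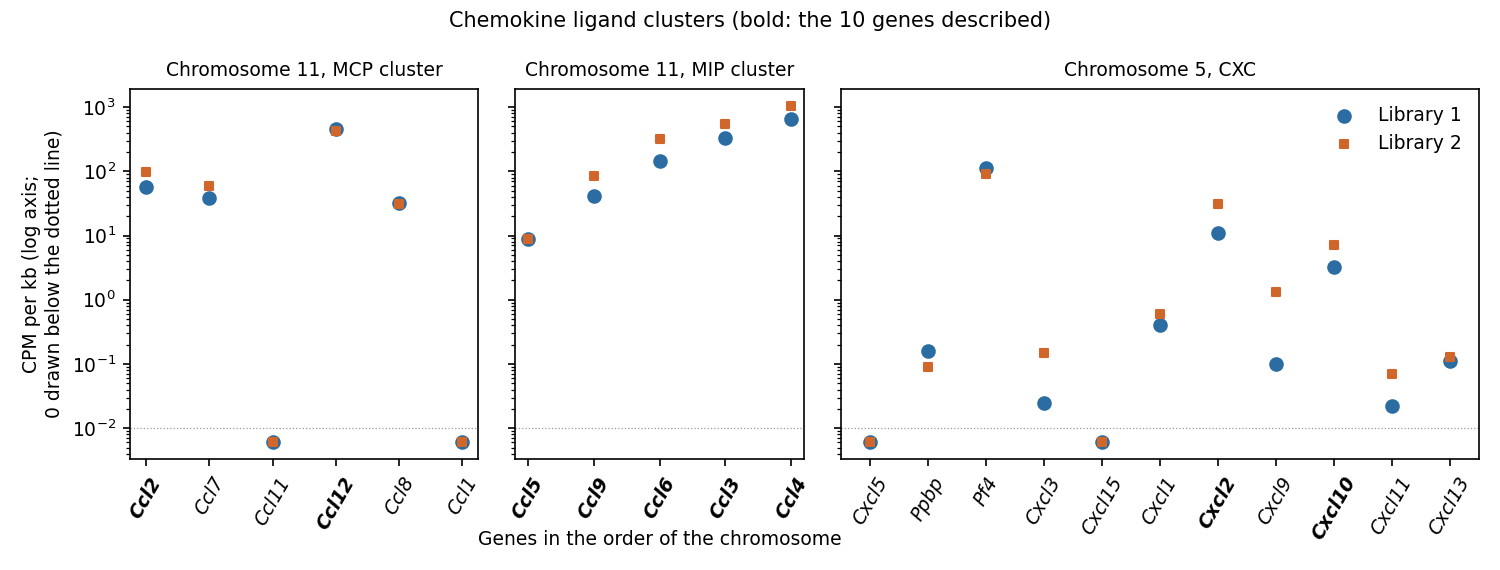
Level per length (CPM per kb, log axis) of chemokine ligand genes in the order of the chromosome, for the MCP and MIP clusters of chromosome 11 and the CXC genes of chromosome 5, with circles for library 1 and squares for library 2 and genes with no counts drawn below the dotted line. In the MIP cluster the level rises from Ccl5 at 8.78 and 8.86 CPM per kb to Ccl4 at 661 and 1045.

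On chromosome 5, Cxcl1, which encodes KC and lies 10.8 kb from Cxcl2, had only 18 counts in library 1 and 46 in library 2, and Cxcl3 had 2 and 21. Of the CXCR2 ligands listed, Cxcl2 was thus the most abundant, with 26.6 and 52.4 times the level per kb of Cxcl1. Pf4, a CXC gene of platelets that border macrophages are also known to express, had 79.8 and 64.5 CPM, and per length, at 111 and 89.5 CPM per kb, it stood above the 3 CXC genes of the 10. The 6 platelet genes summed to 116 and 83.9 CPM, with Gp6 at 0 in both libraries and Gp1bb at 0 in library 1. Most of these sums came from Itgb3, at 71.5 and 22.8 CPM, and Gp9, at 43.6 and 60.6 CPM, which moved in opposite directions. The 8 border macrophage genes summed to 1109 and 409 CPM, with 4 of them more than 2-fold lower in library 2, against 25.9% of all counted genes. The part of either cell type in the level of Pf4 was not tested. Of the 28 ligand genes outside the 10, 11 were counted in both libraries, 8 had no counts in either and 9 were in between. Of the 11 counted, 3 were more than 2-fold higher in library 2 and none more than 2-fold lower, against 5.74% and 25.9% of all counted genes.

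Receptors for these ligands were also read. Of 23 receptor genes listed, 17 were counted in both libraries, with 5 more than 2-fold higher in library 2 and 2 more than 2-fold lower, where the shares over all counted genes were 5.74% and 25.9%. Ccr1, for those of Ccl6 and Ccl9, had 49.1 and 167 CPM, and Cxcr2, for that of Cxcl2, had 47.0 and 199 CPM. Both of these receptors differed more than their ligands, by 3.40-fold and 4.23-fold. Neutrophils are known to carry both, but their part in these differences was not tested. The other receptor genes more than 2-fold higher in library 2 were Ccr3, Ccr6 and Cxcr1, by 2.43-fold, 2.43-fold and 2.44-fold. Ccr2, for those of Ccl2 and Ccl12, had 65.1 and 76.3 CPM. Cxcr3 and Cxcr6, for those of Cxcl10 and Cxcl16, were low, with 136 and 312 counts and with 25 and 12 counts. The 2 receptor genes more than 2-fold lower in library 2 were Cxcr6, at 1.07 and 0.292 CPM, and Ackr3, at 8.13 and 3.77 CPM.

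Near-identical sequence, which can lead reads to be lost or given to another gene, was looked for in the GENCODE transcripts. No window of 75 bases, the read length, in the transcripts of the 7 CC genes occurs in a transcript of another gene. For Cxcl2, 4.57% of windows occur in Cxcl3. Cxcl10 shares 133 exon bases with Art3 and Cxcl16 shares 552 with Zmynd15, each on the opposite strand, and whether counting used strand is not given in the sources used here. Art3 had 10 and 33 counts and Zmynd15 had 72 and 109. Ccl2 overlaps Gm17268 and Ccl6 overlaps E230016K23Rik, with no shared exon bases.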

How the data were processed

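RNA-seq counts of 2 sham libraries were used. The authors used HISAT2 to map paired-end reads of 75 bases to GRCm38, and HTSeq for counts of each Ensembl gene, from cDNA made with the SMART-Seq HT Kit and tagmented with Nextera XT. The deposited values are raw counts, without normalization. The versions, annotation release and strand setting are not given in the sources used here. Symbols were matched for 53620 of 53801 genes.

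CPM, log2 ratios and 95% Wilson intervals were computed with Python 3.11.15, numpy 2.4.6, pandas 2.3.3 and scipy 1.17.1, and plots with matplotlib 3.10.9. A gene was called counted where each library gave it 10 or more counts. TMM (edgeR 4.0.16) and DESeq2 1.42.0 size factors, in R 4.3.3, served only as alternative scalings, and no differential test was run. For the GC and length adjustment, the median log2 ratio of genes in the same of 10 bins of GC content and 10 of length was subtracted, or of the GC bin alone where fewer than 20 genes shared both. Ratios, adjustment and window search were tested on simulated data. Exon lengths, GC content and transcripts are from GENCODE M21, whose coordinates for the 10 genes equal those of the files, with starts given from 1. The genes, lists and comparisons were chosen with earlier results of these data known. Named were the 10 genes, other counted ligands, neighbours in the clusters, receptors of the 10, and the leading gene or genes at 0 of marker lists, with Cxcl9, Cxcl11 and Cxcl3 named as neighbours. Ly6c2, Plac8, Vcan, Ms4a7, Itgb3, Ccr3, Ccr6, Cxcr1 and Ackr3 were named besides, to show how the genes of their lists differed. For the 2 highest genes per kb, the 3 protein-coding genes nearest in level were named. The 15 marker lists were microglia, neutrophil, monocyte, border macrophage, dendritic cell, T and NK cell, B cell, basophil and mast cell, platelet, endothelial cell, astrocyte, oligodendrocyte, neuron, choroid plexus and early response genes. Some genes that this rule names are not reported here.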

Additional observations from a re-analysis of the deposited data

How the results depend on the processing

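No paired analysis was possible because both libraries belong to 1 group. The level of Ccl12 in library 2 relative to library 1 reversed to log2 ratios of 0.12 with TMM library sizes and 0.15 with DESeq2 size factors, since both raise every ratio alike. The log2 ratios of the other 9 genes kept their sign under each scaling and the adjustment. The number of genes more than 2-fold higher in library 2, which was 4, was 1 after adjustment for GC content and length (9.70% of all genes), 7 with a fold of 1.5 (12.6%) and 0 with a fold of 3 (2.94%). The share of all genes more than 2-fold higher, 5.74%, was 10.1% among genes with at least 1 count in both libraries and 11.7% among genes with at least 10 counts in either. Of genes more than 2-fold apart, 18.1% were higher with totals, 30.8% with TMM, 32.7% with DESeq2 size factors and 43.3% after the adjustment. The 2 highest genes took 48.3% of the level of the 10 by CPM (Ccl4 and Ccl6) and 59.0% by CPM per kb (Ccl4 and Ccl3). The order by level per kb was the same with the longest transcript or the longest protein-coding transcript as the length, the latter chosen after seeing the data, as was the minimum mean of 100 counts. With the mean transcript length, Ccl6 stood above Ccl12 and Ccl3, Ccl12 above Ccl3, and Ccl9 above Ccl2. Leaving out 1 of 2 libraries always stays within 1 SD of the mean and says nothing about stability. Depth limits Ccl5 and Cxcl10 most, and 2 libraries limit every mean.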

Other observations

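Ligands known from dendritic cells differed most among the other counted ligand genes. Ccl22, whose product binds CCR4, was counted 84 times in library 1 and 624 times in library 2, at 3.59 and 15.2 CPM. Ccl17, the other CCR4 ligand, had 29 and 179 counts, or 1.24 and 4.35 CPM. Both were higher in library 2, by 4.22-fold and 3.51-fold. The 6 dendritic cell genes summed to 80.7 and 63.5 CPM, with none at 0, and Cd209a alone made up 52.4 and 49.1 CPM. The part of dendritic cells in the levels of Ccl22 and Ccl17 was not tested. Ccl27a was low, with 12 and 55 counts. Ccl24, which encodes eotaxin-2, had 16.4 and 15.7 CPM, and Ccl25 had 4.06 and 3.55 CPM. Cxcl14 had 32 counts in each library, and Cx3cl1, the ligand of the receptor whose allele carries the Cre, had 17 and 46.

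By level per kb in the 2 libraries, the protein-coding genes nearest to Ccl4 among 11480 counted genes outside the ligand list were Ubb, Calm2 and Rnase4. They had 674, 590 and 753 CPM per kb in library 1 and 933, 1070 and 1021 in library 2. Nearest to Ccl3 were Rhog, Cdc42 and Tmem50a, with 359, 374 and 289 CPM per kb in library 1 and 489, 506 and 521 in library 2. With 2 libraries this likeness describes abundance only.

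Of the other lists of cell markers, basophil and mast cell genes had 6 counts in library 1, with Mcpt8, Prss34, Ms4a2 and Fcer1a at 0, and 6936 counts in library 2. Choroid plexus genes, led by Ttr, had 24.7 and 372 CPM. B cell genes had 52.6 and 57.5 CPM, endothelial cell genes 23.1 and 16.9 CPM, astrocyte genes 225 and 174 CPM, oligodendrocyte genes 235 and 242 CPM, and neuron genes 3.08 and 6.17 CPM.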
